A study of Mus musculus with 53 samples.

Results

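The genes described here are 38 genes of the collagens, the wider extracellular matrix and the fibroblasts that deposit it, measured by RNA-seq in mouse small intestine and proximal colon. They were chosen by symbol and found by Ensembl identifier among the 55421 rows of the deposited count matrix, and each symbol matched 1 row. Sorted by role, they comprised 6 fibrillar collagen chains, 8 basement membrane and anchoring chains, 7 other collagen chains, 7 matrix glycoproteins and proteoglycans, 8 remodelling and matricellular genes and 2 receptors of fibroblasts and mural cells.

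Beneath the intestinal epithelium, fibroblasts, smooth muscle cells and pericytes secrete a matrix in which fibrillar collagens give tensile strength, while the basement membrane, a sheet built on type IV collagen and laminin, separates epithelium from stroma. Enzymes of the lysyl oxidase family crosslink collagen and elastin, and matricellular proteins such as thrombospondins and tenascin modulate how cells attach to the fibres. Many carcinomas are known for a dense, remodelled matrix, and the same genes are active in wound repair.

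The study used mice carrying VilCreER, a tamoxifen-inducible Cre recombinase that acts in the intestinal epithelium, so the alleles were altered in epithelial cells while the RNA came from whole tissue. In all 53 libraries the mice carried VilCreER, the WT mice included. Tumours and tissues were compared in 4 settings, each with its own WT group. BrafV600E/+ Alk5fl/fl mice, called BA, express an activated BRAF kinase and lose the TGFβ receptor ALK5 (gene Tgfbr1). Primary tumours of the BA proximal colon (n = 4) were set against WT proximal colon (n = 3). Proximal colon at day 30 after induction came from BA mice (n = 5), BA mice given antibiotics (n = 5), Alk5fl/fl mice, called A (n = 4), A mice given sulindac (n = 4) and WT mice (n = 4). The antibiotics were ampicillin, neomycin trisulphate and metronidazole at 1 g/L each and vancomycin at 500 mg/L, put in the drinking water on the day after tamoxifen. Sulindac, a non-steroidal anti-inflammatory drug, was given at 0.4 g/L from the same day for 14 days and then withdrawn. Small intestine at day 4 came from APCfl/fl mice (n = 10), which lose both copies of the Wnt pathway suppressor APC, and WT mice (n = 6). Primary small intestinal tumours of Apcfl/+ mice (n = 5), which carry 1 floxed copy, were set against WT small intestine (n = 3). The last pair of groups was on an inbred C57BL6/J background and the others on a mixed C57BL/6J background, and the labels give no age or sex.

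Library totals ran from 516985 to 32824795 assigned reads with a median of 18356939, and the second lowest total was 10005066. A count of 3 reads corresponded to 0.163 CPM, the count scaled to a common library size, at the median depth and to 5.8 CPM in the shallowest library, APCfl/fl replicate 1. Levels below are CPM scaled by TMM factors. Alk5 was measured over the whole gene in whole tissue, at 42.0 to 58.2 CPM in BA and 34.8 to 65.3 CPM in WT colon at day 30, and so its count did not check an epithelial deletion. The Y-linked gene Ddx3y exceeded 10 CPM in 3 of 4 BA tumours and 0 of 3 WT proximal colons. It did so in 1 of 5 Apcfl/+ tumours and 3 of 3 WT small intestines, and at day 4 in 4 of 10 APCfl/fl and 4 of 6 WT libraries. The sex of the mice was thus not matched in the tumour comparisons or at day 4. All day 30 libraries exceeded 10 CPM. The part of sex in the results was not tested.

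Several libraries stood apart before any comparison. In BA with antibiotics, replicate 3 held 1355 CPM of adipocyte markers in sum, with Adipoq at 210.2 CPM, against 0 to 0.614 CPM in the other 4, and its fibroblast markers summed to 1508 CPM against 163 to 276 CPM in the other 4. The median member was 1.74 log2 units above the other mice of the group in that library, and 37 of 38 members were highest there. At lower levels Adipoq was 16.6 CPM in WT day 30 replicate 4, and 18.1 and 11.2 CPM in A replicates 1 and 2. It was 9.82 and 4.97 CPM in WT colon replicates 2 and 3, and 6.36 and 7.62 CPM in WT day 4 replicates 2 and 3. BA day 30 colon without antibiotics reached 1.09 CPM and BA tumours 0. WT day 30 replicate 4 was highest of its group for 28 members and WT colon replicate 2 for 29. The part of fat tissue in the results was not tested. The library labelled Apcfl/+ tumour replicate 2 carried 21.5 CPM of small intestine site markers, against 2731 to 7588 CPM in the other 4 tumours, and 225 CPM of colon site markers, against 2.68 to 7.92 CPM, which goes against its small intestine label. BA tumour replicate 2 carried 1133 CPM of small intestinal markers, against 12.9 to 30.07 CPM in the others. In APCfl/fl at day 4 the median member of replicate 5 was 1.12 log2 units above the other mice and that of replicate 8 was -1.5, besides the low depth of replicate 1. Among the WT proximal colons, replicate 1 held the lowest level of 29 of 38 members. Member results that rest on the libraries standing apart are mostly given with and without them. Those of marker and related genes are given with all libraries only.

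Across the 4 settings the matrix genes moved in different ways. In BA tumours 24 of 38 members were higher than in WT tissue, where 7.46% of all tested genes were. In Apcfl/+ tumours 24 were higher as well, but so were 31.4% of all tested genes. Log2 fold changes in tumours reached 4.19. In BA colon at day 30, 22 of 37 tested members were lower and 0 higher, where 29.3% and 25.8% of all genes were. In A colon, with or without sulindac, 0 members passed the test, where at most 0.0960% of all genes were higher and 0.0452% lower. In APCfl/fl small intestine at day 4 the calls were split, 6 higher and 4 lower, below the shares of all genes, 27.5% and 26.7%. All calls are from edgeR's quasi-likelihood test at a Benjamini-Hochberg adjusted p under 0.05 over all tested genes, and fold changes are log2 with their standard errors. In whole tissue, a change in the number of stromal cells and a change in RNA per cell cannot be told apart.

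**Figure D1:**
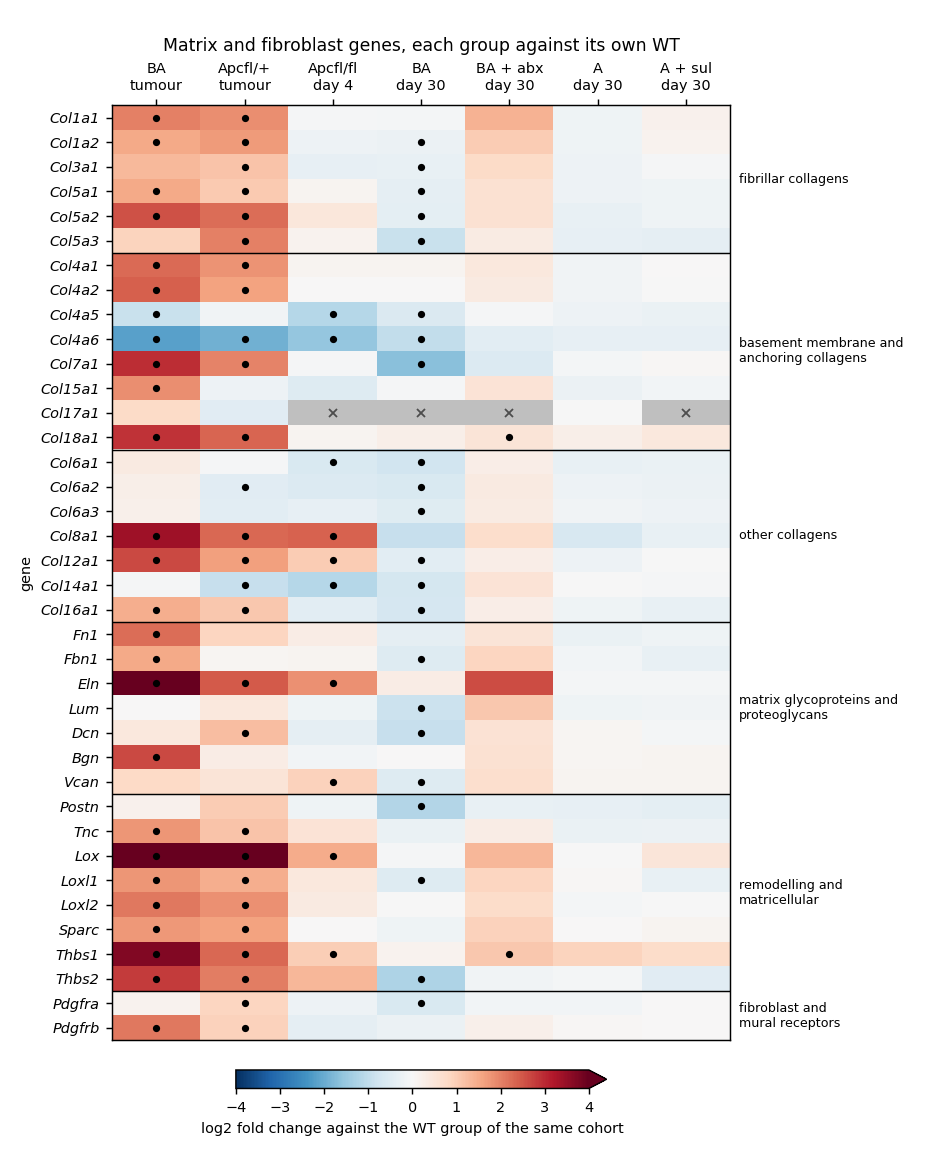
Log2 fold change of each of the 38 members (horizontal strips, ordered by role) in 7 groups against their own WT (columns), with higher in red and lower in blue. Dots mark an adjusted p under 0.05 (edgeR), a grey cross marks Col17a1 where it was not tested, and the colours saturate at 4, beyond which lie Eln in BA tumours at 4.10 and Lox in both tumours at 4.19 and 4.06. The tumour columns are mostly red, the BA day 30 column mostly blue, and the A columns carry no dots.

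Per kilobase of exon, Col3a1, a chain of the fibrils of soft tissues, was the most abundant member in WT proximal colon, at a median of 98.9 CPM per kb, and in WT small intestine, at 64. It was also first in BA tumours at 223 and in Apcfl/+ tumours at 129 CPM per kb. The order behind it differed. Col4a1 stood at place 8 in WT colon and place 2 in BA tumours, at 166 CPM per kb, and at place 3 in WT small intestine and 2 in Apcfl/+ tumours. Thbs1 moved from place 17 to 5 in the colon and from 14 to 6 in the small intestine. Lox, at place 35 of 38 in WT colon with 1.69 CPM per kb, stood at place 17 in BA tumours with 36.1 CPM per kb. The least abundant members in WT colon were Col7a1 and Col17a1, at medians of 0.0921 and 0.312 CPM per kb.

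BA tumours expressed more of most fibrillar, basement membrane and crosslinking genes than WT proximal colon, and less of 2 type IV chains, Col4a5 and Col4a6. Of 38 members, 24 were higher, where 7.46% of all 19188 tested genes were higher, and 2 were lower, where 5.71% were lower. The median member changed by 1.75 log2 units, against 0.03 for all tested genes. Without WT colon replicate 1, 14 members were higher and 1 lower, with a median of 1.63 and 3.49% of all genes called. Without BA tumour replicate 2 the counts were 26 and 2 and the median 1.73, with 19.0% of all genes called.

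Among the fibrillar collagens, which form the banded fibres of connective tissue, 4 of 6 chains rose in BA tumours. Col1a1, the major chain of type I collagen, was 151, 308 and 294 CPM in the WT colons and 907, 1452, 727 and 1025 CPM in the tumours. Every tumour lay above every WT colon, and the log2 fold change was 2.02 ± 0.39, adjusted p = 0.0123. Col5a2, a type V chain that helps set fibril diameter, was 66.6, 118 and 93.1 CPM in WT colon and 428, 317, 639 and 807 CPM in tumours. It had the largest change of the fibrillar chains, at 2.55 ± 0.40, adjusted p = 0.00535. Col1a2 and Col5a1 also rose, by 1.52 and 1.51. Col3a1 was 616, 1109 and 971 CPM in WT colon and 2079, 1747, 2775 and 2299.9 CPM in tumours. Its groups did not overlap either, but the change of 1.30 did not pass the threshold, at an adjusted p of 0.0616, nor did that of Col5a3, 0.89. Without WT colon replicate 1, Col5a1 and Col5a2 alone of the 6 chains were called, and Col1a1 and Col1a2 did not pass, at 1.75 and 1.29 with adjusted p of 0.0661 and 0.105.

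The basement membrane chains divided in opposite directions. Type IV collagen is encoded by 6 genes that lie as head-to-head pairs, and in the mouse Col4a1 and Col4a2 share a start region on chromosome 8, while Col4a5 and Col4a6 share one on the X chromosome. Col4a1 was 192, 337 and 252 CPM in WT colon and 1184, 979.9, 1299 and 1634 CPM in BA tumours, without overlap, a change of 2.28 ± 0.35, adjusted p = 0.00533. Its partner Col4a2 changed by 2.38 ± 0.34, adjusted p = 0.00388. Both belong to the heterotrimer present in nearly all basement membranes. Col4a6, whose product is found in the basement membranes of smooth muscle and some epithelia, was 18.6, 31.4 and 23.1 CPM in WT colon and 9.44, 4.63, 5.84 and 2.19 CPM in tumours. All 4 tumours were below all 3 WT colons, and the change was -2.17 ± 0.42, adjusted p = 0.0118. Col4a5 was 34.7, 51.3 and 44.7 CPM in WT colon and 31.4, 15.2, 26 and 22.1 CPM in tumours, a fall of -0.90 ± 0.25, adjusted p = 0.0428. Without WT colon replicate 1, Col4a5 no longer passed, at -1.04 with an adjusted p of 0.0826.

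Col7a1, Col15a1 and Col18a1 rose too. Col7a1 encodes the anchoring fibrils that tie the basement membrane to the stroma below. It was 0.840, 1.35 and 0.947 CPM in WT colon and 8.26, 10.1, 6.86 and 7.86 CPM in BA tumours, a change of 2.97 ± 0.33, adjusted p = 0.0017. Col18a1, a basement membrane proteoglycan whose cleaved end is endostatin, was 35.1, 67.2 and 51.1 CPM in WT colon and 418, 400.1, 390.4 and 315 CPM in tumours. The lowest tumour stood well above the highest WT colon, and the change was 2.88 ± 0.29, adjusted p = 0.00111. Col15a1, its close relative, rose by 1.87, or 1.63 without WT colon replicate 1, where its adjusted p of 0.0591 did not pass, and Col17a1, a hemidesmosome collagen of epithelial cells, changed by 0.76 with an adjusted p of 0.174.

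The sequences just upstream of 4 of these start sites are shown because these genes moved in opposite directions or from a very low level. They are from the RefSeq promoter table of mouse (build GRCm38.p6), and run 5′ to 3′ on the strand of the gene. Those of Col4a6, Col7a1 and Col8a1 are the 250 bases before the start site of that table. That of Col4a5 is shortened to 216 bases, since an annotated exon of the gene begins before the table's start site. Capitals mark the GC box, GGGCGG or its reverse complement CCGCCC, the core of Sp1 sites. Col4a5 lies at chrX:141475169-141475384 on the plus strand, Col4a6 at chrX:141474077-141474326 on the minus strand, Col7a1 at chr9:108953336-108953585 on the plus strand and Col8a1 at chr16:57754738-57754987 on the minus strand.
Col4a5: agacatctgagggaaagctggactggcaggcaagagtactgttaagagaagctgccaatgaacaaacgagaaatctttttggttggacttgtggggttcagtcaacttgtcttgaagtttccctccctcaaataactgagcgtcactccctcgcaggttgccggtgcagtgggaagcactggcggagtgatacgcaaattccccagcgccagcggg
Col4a6: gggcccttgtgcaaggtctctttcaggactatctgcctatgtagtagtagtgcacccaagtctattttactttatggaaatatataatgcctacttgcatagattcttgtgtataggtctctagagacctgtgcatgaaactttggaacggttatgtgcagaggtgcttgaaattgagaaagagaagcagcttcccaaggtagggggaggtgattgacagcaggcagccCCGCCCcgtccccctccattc
Col7a1: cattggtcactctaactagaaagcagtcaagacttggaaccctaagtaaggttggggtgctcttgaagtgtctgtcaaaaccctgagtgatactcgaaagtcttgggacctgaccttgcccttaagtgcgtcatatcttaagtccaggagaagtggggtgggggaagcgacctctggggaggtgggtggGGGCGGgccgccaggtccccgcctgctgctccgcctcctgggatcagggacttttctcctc
Col8a1: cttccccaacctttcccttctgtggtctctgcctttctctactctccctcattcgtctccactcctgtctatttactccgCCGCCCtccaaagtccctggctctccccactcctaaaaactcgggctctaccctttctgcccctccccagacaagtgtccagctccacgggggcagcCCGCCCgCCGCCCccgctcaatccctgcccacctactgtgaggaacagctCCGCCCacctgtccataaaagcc

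The printed stretches of Col4a5 and Col4a6 were 52.3% and 47.6% G or C, those of Col7a1 and Col8a1 56.4% and 60.8%. Col8a1 held 4 GC boxes, Col4a6 and Col7a1 1 each and Col4a5 0 in the letters shown, while the whole window of Col4a5 in the table held 1, beyond the printed stretch. The table held windows of 250 bases before to 50 after the start for 25 of 38 members, 29 windows in all. On either strand, GGGCGG occurred in 18 of the 29 windows, 62.1%, against 35.7% of all 32851 windows. TATAAA occurred in 6, 20.7% against 13.6%. The AP-1 site TGANTCA was found in 1 window, that of Col6a1, against 7.81% of all windows, and CTTTGAT, a TCF/LEF site, in 0, against 3.73%. These matches describe letters only, and no factor binding was measured.

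Of the 7 other collagens, Col8a1, Col12a1 and Col16a1 rose in BA tumours and the type VI and XIV chains did not pass. Col8a1 encodes a short-chain network collagen of vessel walls and injured tissue. It was 17.5, 5.41 and 11.1 CPM in WT colon and 92.1, 62.6, 100.1 and 236 CPM in tumours, where replicate 4 was the highest, a change of 3.40 ± 0.57, adjusted p = 0.00689. Col12a1, which decorates fibril surfaces, was 49.3, 58.6 and 80.2 CPM in WT colon and 332, 460.3, 347 and 427 CPM in tumours, a change of 2.63 ± 0.28, adjusted p = 0.00144. Groups of neither gene overlapped. Col16a1 rose by 1.44. The 3 chains of type VI collagen, a beaded microfibril around cells, changed by 0.37, 0.22 and 0.21 for Col6a1, Col6a2 and Col6a3. Col14a1 changed by -0.06.

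Among the glycoproteins and proteoglycans, 4 of 7 rose in BA tumours. Eln, which encodes elastin, was 11.4, 15.1 and 18.1 CPM in WT colon and 162, 76.1, 226 and 568 CPM in tumours. The tumours differed among themselves several-fold, with replicate 2 lowest and replicate 4 highest, yet all exceeded the WT colons, and the change was 4.10 ± 0.67, adjusted p = 0.00637. Fn1, fibronectin, on which cells assemble other matrix, was 201, 471 and 228 CPM in WT colon and 1167, 1624, 1161 and 1698 CPM in tumours, a change of 2.23 ± 0.42, adjusted p = 0.0107. Bgn, the small leucine-rich proteoglycan biglycan, rose by 2.65 ± 0.51, adjusted p = 0.0118, and Fbn1, fibrillin of the elastic microfibril, by 1.50, with part of the Fbn1 exons shared with a gene on the other strand. Dcn and Lum, decorin and lumican, which bind collagen fibrils, changed by 0.42 and 0.02, and Vcan, versican, by 0.78. These 3 did not pass. Without WT colon replicate 1 the count of 4 became 1, Eln, and Fn1, Fbn1 and Bgn did not pass, at 2.00, 1.29 and 2.45 with adjusted p from 0.0659 to 0.0775. Dcn was 284, 362 and 191 CPM in WT colon and 273, 354, 456 and 421 CPM in tumours, with overlapping groups.

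Of the remodelling and matricellular genes, 7 of 8 rose in BA tumours. Lox, lysyl oxidase, which starts collagen and elastin crosslinks, was 8.08, 8.00 and 10.4 CPM in WT colon and 86.3, 182, 163 and 220.2 CPM in tumours. This was the highest fold of any member, 4.19 ± 0.37, adjusted p = 0.000747. Thbs1, thrombospondin-1, a matricellular protein that can activate latent TGFβ, was 62.6, 96.9 and 61.7 CPM in WT colon and 672, 748, 807 and 1692 CPM in tumours, a change of 3.72 ± 0.46, adjusted p = 0.00245. Thbs2 was 38.9, 32.8 and 16.1 CPM in WT colon and 92.3, 99.5, 172 and 459.9 CPM in tumours. Tumour replicate 4 lay far above the other tumours for Thbs2, and the change was 2.80 ± 0.63, adjusted p = 0.0214. Loxl1, Loxl2, Tnc and Sparc rose by 1.76, 2.10, 1.76 and 1.75. Without WT colon replicate 1 the count of 7 became 3, Lox, Loxl2 and Thbs1. Loxl1, Tnc, Sparc and Thbs2 did not pass there, at 1.68, 1.64, 1.66 and 3.07 with adjusted p from 0.0516 to 0.0757. Postn, periostin, a matricellular product of fibroblasts, was 289, 555 and 354 CPM in WT colon and 412, 286, 607 and 503 CPM in tumours, and its change of 0.17 did not pass, at an adjusted p of 0.801.

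The receptors parted as well. Pdgfrb, the PDGF receptor of pericytes and fibroblasts, was 28.7, 34.6 and 29.9 CPM in WT colon and 101, 113, 116 and 213 CPM in BA tumours, a change of 2.11 ± 0.30, adjusted p = 0.00364. Pdgfra, the receptor of mucosal fibroblasts, was 97.6, 132 and 100.3 CPM and 152, 171, 93.7 and 71.7 CPM, with overlapping groups and a change of 0.13.

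**Figure D2:**
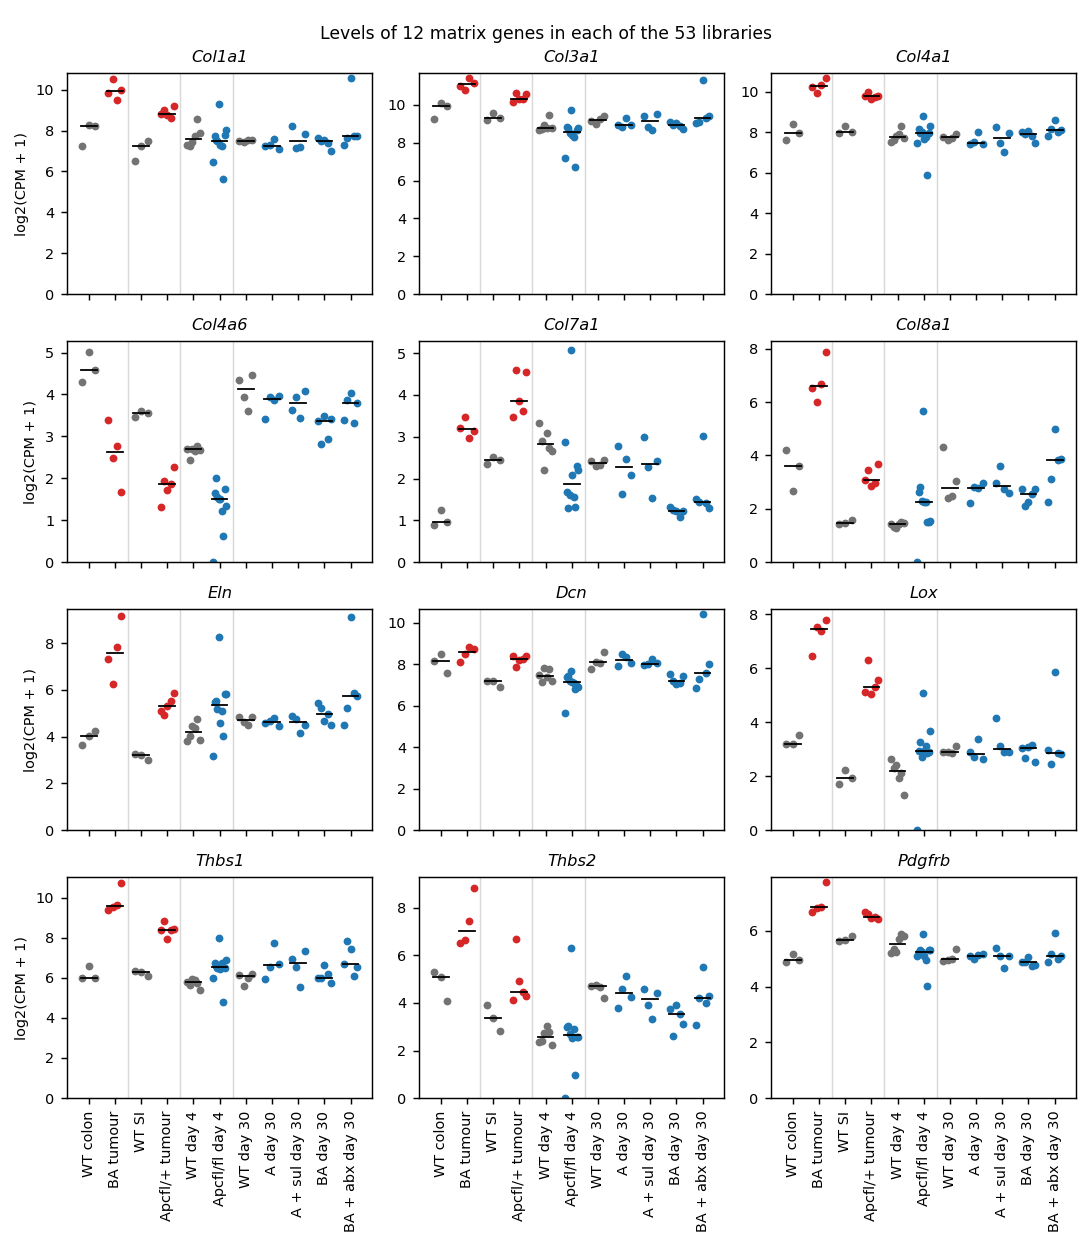
Level of 12 members in every library, as log2(CPM + 1), with 1 point per library, 1 column per group and a bar at the group median (WT groups grey, tumours red, other groups blue). The tumour points of Lox, Eln, Thbs1 and Col8a1 lie above their WT points, those of Col4a6 lie below, and 1 point of BA with antibiotics stands far above its group for Col1a1, Col3a1, Eln, Dcn and Lox.

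Markers of other cell types moved beside these genes in BA tumours, where 7.46% of all tested genes were higher and 5.71% lower. Of 10 smooth muscle markers 0 were higher and 5 lower, with a median of -1.37 and summed levels of 1838 to 3635 CPM against 2547 to 10156 CPM in WT colon. Of 10 immune markers 7 were higher, at 649 to 1719.9 CPM against 374 to 421 CPM, and of 8 endothelial markers 5 were higher, with a median of 1.07. Of 9 tested fibroblast markers 2 were higher and 2 lower, and their sums overlapped, at 332 to 722 CPM against 307 to 828 CPM. The part of these cells in the matrix results was not tested.

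Apcfl/+ tumours of the small intestine also had raised fibrillar, basement membrane and crosslinking genes. Of 38 members, 24 were higher, where 31.4% of all 20567 tested genes were, and 3 were lower, Col4a6, Col6a2 and Col14a1, where 30.09% were. The median member changed by 1.15 log2 units, against 0.03 for all genes. Without the library labelled replicate 2, 25 members were higher and 5 lower, with a median of 1.12 and 71.1% of all genes called.

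All 6 fibrillar chains rose in Apcfl/+ tumours. Col1a1 was 89.5, 148 and 181 CPM in WT small intestine and 454, 517, 432, 390.0 and 583 CPM in tumours, without overlap, a change of 1.87 ± 0.25, adjusted p = 0.000359. Col3a1 was 579.7, 768 and 628 CPM in WT and 1139, 1604, 1251, 1268 and 1526 CPM in tumours, a change of 1.14 ± 0.19, adjusted p = 0.00107. Col5a2 and Col5a3 had the largest changes of the 6, 2.24 and 2.02, and Col1a2 and Col5a1 rose by 1.69 and 1.05. Col5a3 was highest, at 43.3 CPM, in the library labelled replicate 2. All 6 chains were still called higher without that library.

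Type IV collagen divided in the same 2 directions in Apcfl/+ tumours as in BA tumours. Col4a1 was 251, 313 and 258 CPM in WT small intestine and 883, 998, 785, 845 and 886 CPM in tumours, a change of 1.78 ± 0.15, adjusted p = 4.89e-05, and Col4a2 rose by 1.60. Col4a6 was 10, 11.1 and 10.9 CPM in WT and 1.51, 2.83, 2.32, 2.61 and 3.82 CPM in tumours, all tumours below all WT libraries, a change of -1.92 ± 0.25, adjusted p = 0.00033. Col4a5 was 15.9, 15.1 and 14.3 CPM in WT and 11, 11.2, 10.7, 12.8 and 18.3 CPM in tumours, with overlap and a change of -0.14 that did not pass. Col7a1 was 4.07, 4.69 and 4.43 CPM in WT and 10.1, 23.4, 13.6, 11.3 and 22.3 CPM in tumours, a change of 1.98 ± 0.32, adjusted p = 0.000916, and Col18a1 rose by 2.34 ± 0.19, adjusted p = 3.52e-05. Col15a1 and Col17a1 did not pass, at -0.21 and -0.45. Without the library labelled replicate 2, Col17a1 was lower, at -0.84 with an adjusted p of 0.0163.

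Of the remaining collagens, Col8a1 was 1.70, 1.79 and 2.00 CPM in WT small intestine and 7.53, 9.94, 6.29, 6.77 and 11.6 CPM in Apcfl/+ tumours, a change of 2.30 ± 0.25, adjusted p = 0.000141. Col12a1 and Col16a1 rose by 1.63 and 1.07. Col14a1 was 78.8, 81.2 and 80.8 CPM in WT and 35.4, 20.1, 34.2, 37.5 and 71.8 CPM in tumours, a fall of -0.91 ± 0.33, adjusted p = 0.0377, with replicate 5 nearest to WT. Among the glycoproteins, Eln and Dcn passed. Eln was 8.66, 8.20 and 7.07 CPM in WT and 33.7, 29.5, 39.3, 45.5 and 56.8 CPM in tumours, a change of 2.46 ± 0.23, adjusted p = 6.93e-05. Dcn was 143, 145 and 119 CPM in WT and 332, 229, 292, 303 and 334 CPM in tumours, without overlap, a change of 1.24 ± 0.15, adjusted p = 0.000243.

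Fn1 in the Apcfl/+ tumours turned on 1 library. It was 193, 251 and 234 CPM in WT small intestine and 238, 966, 219, 201 and 283 CPM in tumours, so 4 tumours lay near WT and the library labelled replicate 2 far above. Its change of 0.85 ± 0.54, adjusted p = 0.194 became 0.16 without that library. Postn showed the same library high, at 40.5, 192, 44.8, 38.5 and 82.7 CPM in tumours against 41.6, 49.3 and 35.4 CPM in WT, and its change of 1.02 became 0.40.

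Lox again had the highest fold of any member, at 2.27, 3.63 and 2.81 CPM in WT small intestine and 33.7, 77.5, 31.8, 37.9 and 45.7 CPM in Apcfl/+ tumours, a change of 4.06 ± 0.37, adjusted p = 6.20e-05, or 3.79 without the library labelled replicate 2. Thbs1 was 81.5, 78.7 and 66.3 CPM in WT and 339, 459, 248, 334 and 342 CPM in tumours, a change of 2.29 ± 0.20, adjusted p = 5.05e-05. Thbs2 was 14.1, 9.26 and 6.05 CPM in WT and 16.6, 104, 29.2, 21.1 and 18.8 CPM in tumours. The change of Thbs2, 2.05 ± 0.69, adjusted p = 0.028, fell to 1.23 without the library labelled replicate 2 and still passed, at an adjusted p of 0.00479. Loxl1, Loxl2, Tnc and Sparc rose by 1.47, 1.83, 1.15 and 1.62. Both receptors rose. Pdgfra was 128, 147 and 137 CPM in WT and 220.2, 291, 232, 210.1 and 206 CPM in tumours, a change of 0.86 ± 0.13, adjusted p = 0.000782, and Pdgfrb changed by 0.93 ± 0.09, adjusted p = 7.61e-05.

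In the Apcfl/+ tumours, where 31.4% of all tested genes were higher and 30.09% lower, 5 of 9 tested fibroblast markers were higher and 2 lower. The fibroblast markers summed to 173 to 381 CPM against 156 to 367 CPM in WT. Smooth muscle markers were lower for 6 of 10, endothelial markers higher for 6 of 8, and immune markers lower for 6 of 10. Their part in the result was not tested.

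Both tumour effects were then set against each other in 1 fit, as the difference between the BA tumour effect over WT colon and the Apcfl/+ tumour effect over WT small intestine. The effect was greater in BA tumours for 6 members, where it was for 21.9% of all 21668 genes, and smaller for 1, where it was for 17.7%. The median difference was 0.51, against 0.05 for all genes. The tissue, the mouse background, the driver alleles and the sex balance, by Ddx3y, all differed between the effects and cannot be told apart. The differences were 2.36 for Bgn, 2.12 for Col15a1, 1.45 for Fbn1, 1.45 for Thbs1, 1.20 for Pdgfrb and 1.03 for Col12a1. Col5a3 was the member with the smaller effect, at a difference of -1.10 ± 0.42, adjusted p = 0.0481. Bgn was 48.6, 84 and 71 CPM in WT colon and 268, 841, 225 and 369 CPM in BA tumours, against 51.1, 69 and 70.5 CPM in WT small intestine and 62.9, 111, 52.4, 56.6 and 83.8 CPM in Apcfl/+ tumours. BA tumour replicate 2 was the highest of the 4 for Bgn. For Lox the difference was 0.15, with a 95% interval of -0.86 to 1.15, and for Col4a6 it was -0.21, with an interval of -1.34 to 0.92. Without either of the libraries that went against its site markers, 9 members had a greater and 3 a smaller effect in BA tumours. Col15a1, Col12a1, Fbn1, Bgn, Thbs1, Pdgfrb and Col5a3 were among them each time. Of all genes, 44.9% were called without Apcfl/+ tumour replicate 2 and 46.6% without BA tumour replicate 2.

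**Figure D3:**
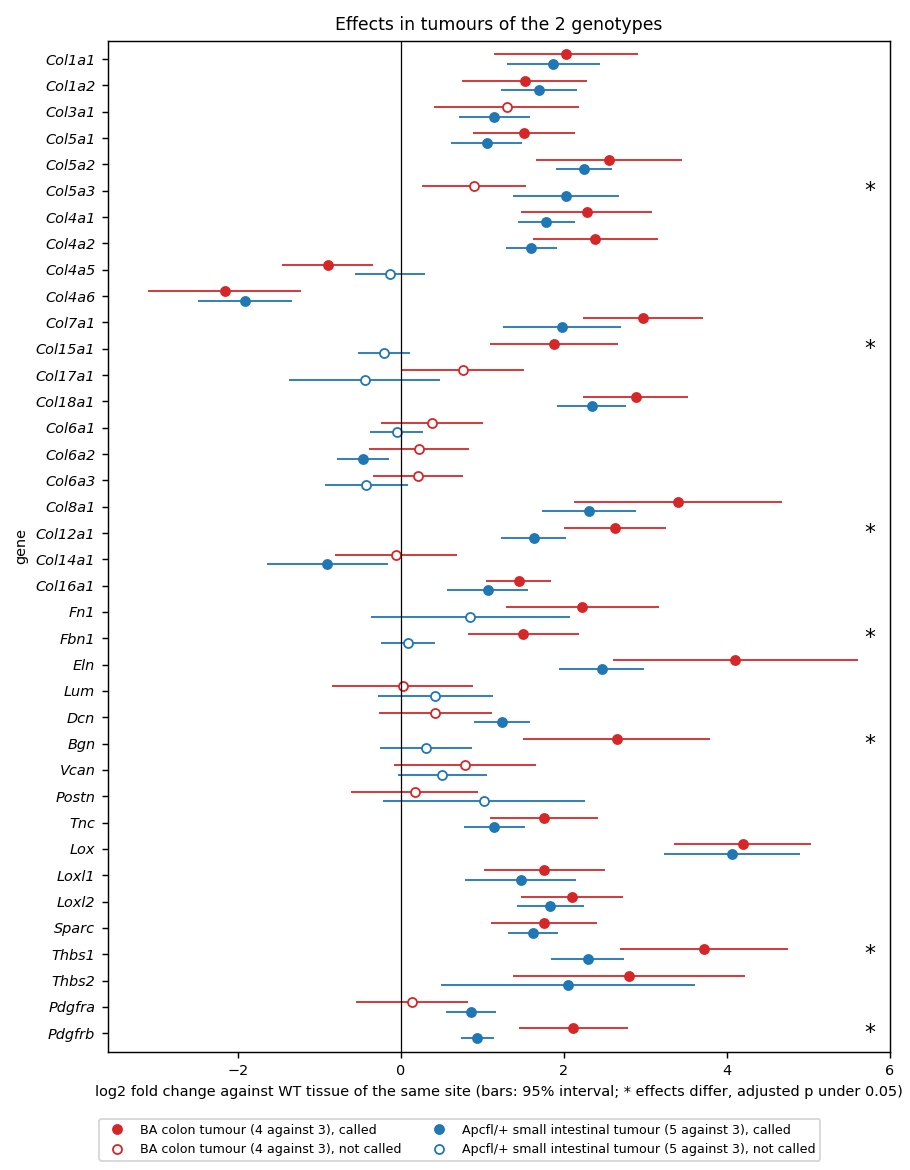
Log2 fold change of each member with its 95% interval in BA tumours against WT colon and in Apcfl/+ tumours against WT small intestine (filled points pass an adjusted p of 0.05), with an asterisk where both effects differed. Lox lies farthest right in both, at 4.19 and 4.06, Col4a6 lies left of 0 in both, at -2.17 and -1.92, and 7 members carry an asterisk.

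In BA colon at day 30 every member that was called was lower than in WT. Some of them, such as Col7a1 and Thbs2, were higher in BA tumours. Others, such as Dcn, Lum, Postn and the type VI chains, were not called there. Lox, Thbs1 and Col4a1, higher in BA tumours, did not pass at day 30. Of 37 tested members, 0 were higher, where 25.8% of all 17471 tested genes were, and 22 were lower, where 29.3% were. The median member changed by -0.43, against -0.03 for all genes. By role, 5 of 6 fibrillar chains, 3 of 7 tested basement membrane chains, 6 of 7 other collagens, 4 of 7 glycoproteins, 3 of 8 remodelling genes and 1 of 2 receptors were lower. Col17a1 was too low to test. With all 5 day 30 groups in 1 fit, which shared their spread and called 42.7% of all genes in either direction, 6 members were lower. These were Col4a6, Col7a1, Postn, Thbs2 and Pdgfra, shared with the fit of BA and WT alone, and Col17a1, which passed the filter on low counts there. Dcn, Col5a3 and Col6a1 did not pass in it, at adjusted p of 0.132, 0.0537 and 0.051. When BA with antibiotics replicate 3 was left out of that fit, a setting chosen after seeing the data, 17 members were lower, Dcn, Col5a3 and Col6a1 among them. There 8432 of 18603 tested genes were called in either direction.

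Col7a1 had the largest fall at day 30, from 4.32, 3.93, 4.04 and 4.48 CPM in WT to 1.48, 1.36, 1.33, 1.11 and 1.33 CPM in BA colon, all 5 below all 4, a change of -1.67 ± 0.15, adjusted p = 4.29e-06. In BA tumours the same gene had been higher than in WT. Col4a6 was 19.2, 14.4, 11.1 and 21 CPM in WT and 9.24, 6.04, 10.2, 6.69 and 9.57 CPM in BA, without overlap, a change of -0.99 ± 0.20, adjusted p = 0.00175. Col4a5 changed by -0.57 ± 0.16, adjusted p = 0.0116. Col4a1 was 216, 195, 211 and 238 CPM in WT and 261, 237, 269.7, 225 and 174 CPM in BA, with overlapping groups, a change of 0.11 that did not pass, nor did those of Col4a2, Col15a1 and Col18a1, 0.00, -0.04 and 0.24.

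Of the fibrillar chains at day 30, Col5a3 fell furthest, with a change of -0.90 ± 0.11, adjusted p = 3.82e-05, followed by Col5a2 at -0.40, Col5a1 at -0.37, Col3a1 at -0.30 and Col1a2 at -0.23. Col1a1 was 177, 172, 183 and 183 CPM in WT and 197, 179.9, 182, 168 and 127 CPM in BA, with overlap, and its change of -0.07 did not pass. The 3 type VI chains fell, Col6a1 from 186, 212, 231 and 238 CPM in WT to 135, 139, 151, 113 and 113 CPM in BA, a change of -0.75 ± 0.11, adjusted p = 0.000155, and Col6a2 and Col6a3 by -0.60 and -0.49 on the log2 scale. Col14a1, Col16a1 and Col12a1 were lower too, at -0.71, -0.68 and -0.43.

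Dcn was 218, 274, 266 and 384 CPM in WT and 186, 144, 131, 133 and 173 CPM in BA at day 30, without overlap, a change of -0.91 ± 0.16, adjusted p = 0.00059. Lum, Fbn1 and Vcan were lower by the same test, at -0.85, -0.53 and -0.53, while Eln, Bgn and Fn1 changed by 0.30, 0.02 and -0.37 and did not pass. Postn was 301, 289, 294 and 338 CPM in WT and 166, 105, 157, 122 and 134 CPM in BA, every BA colon below every WT colon, a change of -1.17 ± 0.12, adjusted p = 1.65e-05. Thbs2 was 25.1, 25.9, 24.7 and 17.5 CPM in WT and 12.5, 5.12, 14.2, 10.5 and 7.69 CPM in BA, a change of -1.24 ± 0.24, adjusted p = 0.00126, and Loxl1 changed by -0.51. Lox and Thbs1, both higher in each kind of tumour, changed by -0.04 and 0.14 at day 30 and did not pass. Pdgfra changed by -0.60 ± 0.12, adjusted p = 0.00106.

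Stromal markers were also lower at day 30 in BA colon, where 29.3% of all tested genes were lower and 25.8% higher. Fibroblast markers were lower for 6 of 9 tested, at a summed 169 to 235 CPM against 322 to 453 CPM, smooth muscle markers for 8 of 10, pericyte markers for 4 of 5 and markers of enteric glia and neurons for 7 of 7. Epithelial markers were higher for 9 of 10, with a median of 0.77. The part of these cell types in the fall of the matrix genes was not tested.

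The BA tumour effect exceeded the BA day 30 effect for 31 of 38 members, where it did for 9.87% of all 20637 genes, and was smaller for 0, where it was for 6.46%. The median difference was 2.06, against 0.02 for all genes. Col7a1 differed by 4.64 ± 0.29, adjusted p = 4.80e-07, Lox by 4.22 ± 0.34, adjusted p = 6.64e-06 and Thbs2 by 4.02 ± 0.66, adjusted p = 0.000958. Col4a6 differed by -1.16, with a 95% interval of -2.17 to -0.15, and was lower than WT in both. Without BA tumour replicate 2 the counts were 33 and 0, with 24.7% of all genes called. The tumour and day 30 libraries had separate WT groups.

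No member passed the test in A colon, where ALK5 is lost without BRAF activation. At day 30, 0 of 38 members were called, where 0.0960% of all 17713 genes were higher and 0.0452% lower, and DESeq2 called 0 as well. At an unadjusted p under 0.05 there were 3, and the median member changed by -0.14, against 0.01. Dcn was 243, 362, 323 and 263 CPM in A colon, a change from WT of 0.07 with a 95% interval of -0.35 to 0.49, and Col7a1 was 5.82, 2.07, 4.58 and 3.22 CPM, at -0.09 with an interval of -0.70 to 0.52. In A with sulindac, 0 of 37 tested members were called by edgeR and 0 by DESeq2, with 3 at an unadjusted p under 0.05, where 0.0507% of all 17742 genes were higher and 0% lower. Set directly against A, sulindac gave 0 calls by either tool and 0 at an unadjusted p under 0.05, where 0% of all 17568 genes were higher and 0% lower. Its median was 0.04, against 0.01. Lox was 16.9, 7.60, 6.37 and 6.35 CPM in A with sulindac, replicate 1 standing above the rest, and 6.49, 5.49, 9.32 and 5.14 CPM in A.

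Set against A colon, BA colon at day 30 had 14 of 37 tested members lower and 0 higher, where 23.6% of all 17128 genes were lower and 21.7% higher. The median was -0.24, against -0.06 for all genes. Dcn changed by -0.94 ± 0.15, adjusted p = 0.000533, Col7a1 by -1.54 ± 0.28, adjusted p = 0.00107 and Thbs2 by -1.14 ± 0.32, adjusted p = 0.0137. Postn was 167, 256, 312 and 234 CPM in A colon, all above the BA colons given earlier, a change of -0.81 ± 0.19, adjusted p = 0.00475. The comparisons of A and BA with WT share the same 4 WT libraries, and BA with A shares the BA libraries. When all 5 day 30 groups shared a fit, 6 members passed, Col7a1, Thbs2 and Postn among them and Dcn not, and without BA with antibiotics replicate 3 in that fit 14 did, Dcn included. Over all tested genes, 8234 of 18660 were called in the former and 8716 of 18603 in the latter. Leaving out BA replicate 4 gave 9, where 6708 of 16982 tested genes were called.

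In BA mice given antibiotics, 1 library changed the picture. With all 5 libraries, 2 of 37 tested members were higher than WT, Col18a1 and Thbs1, where 21.8% of all 17569 genes were, and 0 were lower, where 17.8% were. The median member changed by 0.56. Without replicate 3, the library with the adipocyte markers, 3 members were higher, Col18a1, Eln and Thbs1, and 8 were lower, Col4a6, Col7a1, Col6a1, Col6a2, Lum, Dcn, Postn and Thbs2, with a median of -0.08 and 47.5% of all genes called. Leaving out replicate 1 of this group gave 6 called members and leaving out WT replicate 2 gave 1. Over all tested genes, 6051 of 17530 were called in the former fit and 6511 of 17783 in the latter. Fibroblast markers summed to 163 to 1508 CPM from the lowest to the highest library, against 322 to 453 CPM in WT, and 9 of 10 epithelial markers were higher. Their part in the result was not tested.

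Col1a1 was 156, 197, 1503, 211 and 211 CPM and Dcn was 116, 156, 1358, 192 and 259 CPM in the 5 mice with antibiotics, with replicate 3 several-fold above the rest in each case. The change of Dcn from WT went from 0.59 ± 0.69, adjusted p = 0.528 to -0.67 without that library, where its adjusted p was 0.0383. Col7a1 was 1.87, 1.71, 7.11, 1.67 and 1.47 CPM and changed from -0.56 to -1.33, adjusted p = 8.61e-05. Postn was 122, 165, 503, 186 and 243 CPM and changed from -0.30 to -0.79, adjusted p = 0.00425. Eln was 21.6, 36.9, 562, 56.9 and 52.6 CPM, and its change of 2.60 became 0.73, adjusted p = 0.0344.

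Thbs1 and Col18a1 kept their direction and their call without replicate 3. Thbs1 was 104, 229.6, 171, 67.3 and 92 CPM with antibiotics and 70.8, 47.7, 63.5 and 71.3 CPM in WT, with replicate 2 highest and 1 library within the WT range, a change of 1.08 ± 0.33, adjusted p = 0.026, and 0.94 without replicate 3. Col18a1 was 72.4, 87.3, 106, 77.9 and 93.4 CPM with antibiotics and 60.3, 66, 65.4 and 56.8 CPM in WT, without overlap, a change of 0.50 ± 0.12, adjusted p = 0.00906, and 0.40 without it. In BA without antibiotics, which used the same WT libraries, Thbs1 was 63.7, 62.3, 101, 72.5 and 52.8 CPM and Col18a1 68.8, 83.8, 89.8, 66.5 and 61.2 CPM.

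Against BA without antibiotics, 1 of 37 tested members was higher, Col8a1, where 4.53% of all 16680 genes were, and 0 were lower, where 8.50% were. The median was 0.99, against 0.03, and 28 members had an unadjusted p under 0.05. Col8a1 was 3.74, 7.71, 30.8, 13 and 13.7 CPM with and 5.73, 3.33, 3.73, 4.89 and 5.69 CPM without antibiotics, a change of 1.59 ± 0.47, adjusted p = 0.0473. Without replicate 3 it no longer passed, at 1.02 with an adjusted p of 0.058. Then the member called was Col6a1, at 0.33 with an adjusted p of 0.0498, and the median was 0.32, with 15.9% of all genes called. Leaving out BA replicate 1, 2, 4 or 5 or antibiotics replicate 5 gave 0 called members, and leaving out antibiotics replicate 1 gave 8. Over all genes, 1300 to 1844 were called in the fits with 0 members and 2566 of 16944 in the last.

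**Figure D4:**
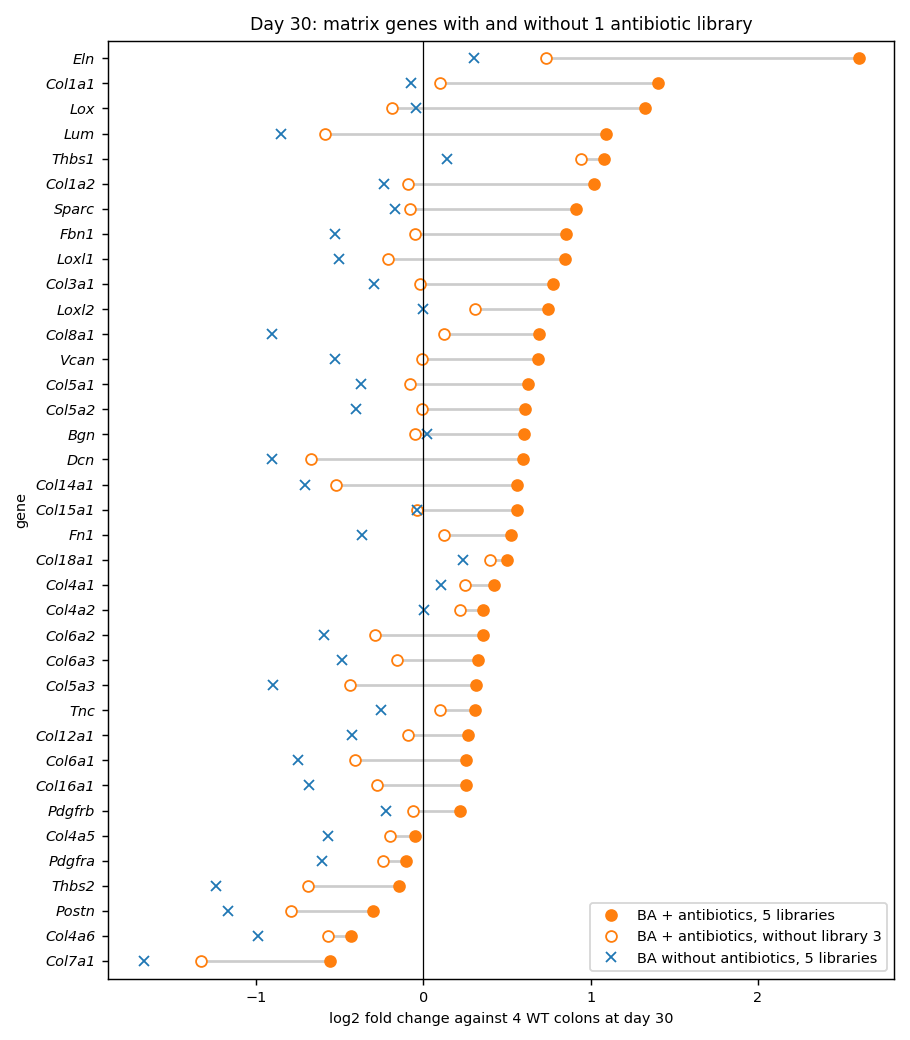
Log2 fold change of each member against the same 4 WT colons at day 30 for BA with antibiotics with all 5 libraries (filled), the same group without replicate 3 (open) and BA without antibiotics (crosses). The filled points lie right of the open ones for most members, as for Dcn, which goes from 0.59 to -0.67.

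Small intestine 4 days after APC loss showed changes in both directions. Of 37 tested members, 6 were higher, where 27.5% of all 17536 genes were, and 4 were lower, where 26.7% were, a share of members below that of all genes in either direction. The median was 0.02, against 0. The higher members were Col8a1, Col12a1, Eln, Vcan, Lox and Thbs1 and the lower ones Col4a5, Col4a6, Col6a1 and Col14a1. Without replicate 5, 6 were higher and 9 lower, with a median of -0.23 and 54.9% of all genes called. Without replicates 1, 5 and 8 together, chosen after seeing the data, 8 were higher and 5 lower, with a median of -0.05. There 64.4% of all genes were called.

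Col4a6 was in WT small intestine at day 4 4.39 at the lowest, 5.44 at the median and 5.85 at the highest CPM, and in APCfl/fl 0 at the lowest, 1.83 at the median and 3.04 at the highest CPM. All APCfl/fl libraries were below all WT libraries, the 0 being the shallowest library, where 3 reads would have been 5.8 CPM, and the change was -1.55 ± 0.24, adjusted p = 5.31e-05. Col4a5 was in WT 8.64 at the lowest, 11.2 at the median and 14.2 at the highest CPM and in APCfl/fl 1.59 at the lowest, 5.19 at the median and 7.51 at the highest CPM, also without overlap, a change of -1.13 ± 0.22, adjusted p = 0.000476. Its value of 1.59 CPM was 1 read, again in the shallowest library. Col14a1 was in WT 51.4 at the lowest, 57.2 at the median and 66.5 at the highest CPM and in APCfl/fl 9.50 at the lowest, 28.1 at the median and 33.8 at the highest CPM, again without overlap, a change of -1.15 ± 0.17, adjusted p = 3.49e-05. These 3 kept their calls without replicates 1, 5 and 8, at -1.36, -0.97 and -0.97.

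Lox was in WT at day 4 1.47 at the lowest, 3.61 at the median and 5.18 at the highest CPM and in APCfl/fl 0 at the lowest, 6.59 at the median and 32.4 at the highest CPM, the highest value being replicate 5 and the lowest the shallowest library. Its change of 1.48 ± 0.44, adjusted p = 0.00888 became 1.15 without the 3 libraries, at an adjusted p of 0.000712. Col12a1 was in WT 24.6 at the lowest, 28.9 at the median and 38.8 at the highest CPM and in APCfl/fl 26.4 at the lowest, 60.6 at the median and 91.7 at the highest CPM, a change of 1.02 ± 0.22, adjusted p = 0.000859, with replicates 1 and 8 within the WT range. Thbs1 was in WT 41.6 at the lowest, 53.8 at the median and 61.1 at the highest CPM and in APCfl/fl 26.4 at the lowest, 93.3 at the median and 249 at the highest CPM, a change of 0.97 ± 0.29, adjusted p = 0.00942. Col8a1 and Eln depended more on replicate 5. Col8a1 reached 0 to 49.96 CPM from lowest to highest, and its change of 2.35 became 1.05 without replicate 5. That of Eln went from 1.82 to 1.01. All of these passed without replicate 5. The fibrillar chains had 0 of 6 called in the fit with every library. Fibroblast markers were lower for 3 of 9 tested, where 26.7% of all tested genes were. Endothelial markers were lower for 6 of 8 and immune markers for 7 of 10. The part of these cells in the result was not tested.

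Some members were called in several settings. Col4a6 was lower in 4 comparisons with WT, at -2.17 in BA tumours, -1.92 in Apcfl/+ tumours, -0.99 in BA colon at day 30 and -1.55 in APCfl/fl at day 4. Lox was higher in both tumours and in APCfl/fl at day 4, at 4.19, 4.06 and 1.48, and was -0.04 in BA colon at day 30, where it did not pass. Col14a1 was lower in Apcfl/+ tumours, APCfl/fl and BA day 30 colon, at -0.91, -1.15 and -0.71, and -0.06 in BA tumours, where it did not pass. In the fit of all 5 day 30 groups, Col4a6 kept its BA day 30 call and Col14a1 did not.

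Genes that work on or bind the same matrix were measured beside the members, with all libraries only. In BA tumours 7.46% of all tested genes were higher and 5.71% lower. The shares were 31.4% and 30.09% in Apcfl/+ tumours, and 25.8% and 29.3% in BA colon at day 30. Among 18 genes of collagen processing, which hydroxylate, fold and trim procollagen, 8 were higher and 1 lower in BA tumours, with a median of 0.74, and 14 higher and 1 lower in Apcfl/+ tumours, with a median of 1.10. P4ha3, a prolyl 4-hydroxylase subunit, had the largest rise in each, 3.94 and 3.47. In BA colon at day 30, 3 were higher and 7 lower, P4ha3 the lowest at -0.87 and P4ha1 the highest at 0.92.

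Of 14 genes for laminins, nidogens and other basement membrane parts, 10 were higher and 0 lower in BA tumours, led by Lama1 at 4.02, and 11 and 1 in Apcfl/+ tumours. At day 30 in BA colon 4 were higher and 7 lower, from -0.95 for Lamb2 to 3.11 for Lama3, a laminin chain of epithelial basement membranes. Of 14 matrix receptors, 8 were higher in BA tumours, led by the integrin gene Itga2 at 1.96, and 9 higher and 4 lower in BA colon at day 30, from -1.07 for Ddr2, a collagen receptor of stromal cells, to 2.12 for Itgb4, the hemidesmosome integrin. In Apcfl/+ tumours 10 were higher and 1 lower, from -0.71 for Ddr2 to 1.70 for Cd44, a hyaluronan receptor.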

How the data were processed

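Total RNA of whole small intestine, proximal colon or tumour was sequenced in 53 libraries (TruSeq, paired ends, NextSeq). The deposited values are raw counts of reads per gene: the authors trimmed reads with Trim Galore 0.6.4 after FastQC 0.11.8, aligned them to GRCm38 with HISAT2 2.1.0 and counted them with featureCounts 1.6.4. Strand and multi-mapping settings are not given in the sources used here, so genes that share exons with another gene (Fbn1, Pdgfra and Loxl2 in part) are uncertain. Gene symbols came from GENCODE M21 and matched 55240 of 55421 rows; 0 columns belonged to other samples.

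Each comparison was fitted on its own groups with edgeR 4.0.16 in R 4.3.3 (filterByExpr, TMM factors, quasi-likelihood F test, Benjamini-Hochberg over all tested genes, adjusted p under 0.05). The 2 differences between effects were contrasts in fits of 4 groups. CPM values use TMM factors over all 53 libraries, which differ from those of the single fits. The deposited matrix gave no depth beyond the assigned reads, and precision was taken from the spread between libraries. No source says whether same-numbered mice share a litter, so p-values measure the spread between these libraries. Settings tried were RLE scaling, DESeq2 1.42.0, no filter on low counts, each library left out, the replicate number as a block and all day 30 groups in 1 fit. The steps were tested on simulated data. Tables and figures used Python 3.11.15, pandas 2.3.3 and matplotlib 3.10.9. Motifs were searched on both strands of RefSeq promoter windows (GRCm38.p6).

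The 38 members and the lists of related and marker genes were chosen with earlier results of these data known. Every member could be named. Of the related lists, the genes with the largest and smallest change were named.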

Additional observations from a re-analysis of the deposited data

Results flagged for a closer look

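Of 342 combinations of a member and a group of 4 to 10 libraries, 66 had 1 library that stood apart, its gap to the next library being a large part of the range of the group by Dixon's 95% limit, which chance alone passes in about 1 of 20 groups. Levels are in CPM. BA with antibiotics replicate 3, the library highest in adipocyte markers, was high for 24 members. These were Col1a1 at 1503, Col1a2 at 1515, Col3a1 at 2587, Col5a1 at 278, Col5a2 at 259, Col5a3 at 108, Col7a1 at 7.11, Col15a1 at 125, Col6a1 at 605, Col6a2 at 557, Col6a3 at 288, Col14a1 at 143, Col16a1 at 80.8, Fbn1 at 249, Eln at 562, Lum at 325, Dcn at 1358, Bgn at 513, Vcan at 57.8, Lox at 56.7, Loxl1 at 111, Loxl2 at 99.8, Sparc at 1119 and Pdgfrb at 60.2.

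APCfl/fl at day 4 replicate 5 was high for 18 members, Col1a1 at 624, Col1a2 at 559, Col3a1 at 864, Col5a2 at 175, Col5a3 at 23.4, Col7a1 at 32.8, Col15a1 at 61.9, Col8a1 at 49.96, Fn1 at 856, Eln at 306, Lum at 59.7, Bgn at 318, Postn at 70.9, Lox at 32.4, Loxl1 at 33.9, Sparc at 496, Thbs1 at 249 and Thbs2 at 78.5. Replicate 8 of that group was low for 1, Col14a1 at 9.50. The library labelled Apcfl/+ tumour replicate 2, whose site markers go against its label, was high for 5, Col5a3 at 43.3, Col17a1 at 4.74, Fn1 at 966, Postn at 192 and Thbs2 at 104, and replicate 5 for 1, Col4a5 at 18.3. In the tumours of BA mice, replicate 4 was high for Lum at 113, Thbs1 at 1692 and Pdgfrb at 213, and replicate 2 low for Tnc at 412. In A at day 30, replicate 3 was high for Col1a2 at 259, Col5a2 at 83.1, Col4a1 at 257 and Col4a2 at 170.5, and in A with sulindac replicate 1 for Col18a1 at 138 and Lox at 16.9. In the WT groups, replicate 5 at day 4 was high for Col1a1 at 382, Col1a2 at 376, Col3a1 at 703 and Pdgfra at 93.7, replicate 4 at day 4 for Col17a1 at 1.95, and replicate 4 at day 30 was high for Pdgfrb at 40.2 and low for Thbs2 at 17.5.

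Both tumour effects on 7 members differed in the edgeR test of the difference (BA tumour effect minus Apcfl/+ tumour effect, log2), by -1.10 for Col5a3, 2.12 for Col15a1, 1.03 for Col12a1, 1.45 for Fbn1, 2.36 for Bgn, 1.45 for Thbs1 and 1.20 for Pdgfrb. The BA tumour effect and the BA day 30 effect differed for 31 members, all higher in the tumour. Among the fibrillar collagens the differences were 2.09 for Col1a1, 1.75 for Col1a2, 1.58 for Col3a1, 1.88 for Col5a1, 2.94 for Col5a2 and 1.80 for Col5a3. Among the basement membrane and anchoring collagens the differences were 2.16 for Col4a1, 2.37 for Col4a2, 4.64 for Col7a1, 1.91 for Col15a1, 2.71 for Col17a1 and 2.64 for Col18a1. Among the other collagens the differences were 1.11 for Col6a1, 4.30 for Col8a1, 3.05 for Col12a1 and 2.12 for Col16a1. Among the matrix glycoproteins and proteoglycans the differences were 2.58 for Fn1, 2.02 for Fbn1, 3.80 for Eln, 1.31 for Dcn, 2.61 for Bgn and 1.31 for Vcan. Among the remodelling and matricellular genes the differences were 1.33 for Postn, 2.01 for Tnc, 4.22 for Lox, 2.25 for Loxl1, 2.10 for Loxl2, 1.91 for Sparc, 3.57 for Thbs1 and 4.02 for Thbs2. Of the fibroblast and mural receptors it was 2.33 for Pdgfrb.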

How the results depend on the processing

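Of the 12 counts of called members, the 10 that did not involve antibiotics stayed within 1.5 times of the reported count under RLE scaling, DESeq2 and no low-count filter. With all 5 day 30 groups in 1 fit, BA against WT gave 6 members instead of 22, BA against A gave 6 instead of 14, BA with antibiotics gave 4 instead of 2 against WT and 6 instead of 1 against BA. In the same order, 7965, 8234, 6464 and 1074 of all 18660 tested genes were called. With BA with antibiotics replicate 3 also left out, chosen after seeing the data, the last 2 gave 7 and 0 members. Of all 18603 genes tested there, 7301 and 777 were called. BA with antibiotics gave 4 members with DESeq2 against WT, and against BA it gave 3 with DESeq2 and 2 with no filter. The cause of these shifts was not tested.

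In BA with antibiotics against WT, the direction of 4 members reversed without replicate 3, to -0.41 for Col6a1, -0.29 for Col6a2, -0.59 for Lum and -0.67 for Dcn. Over all libraries left out in turn, their highest values were 0.37, 0.47, 1.29 and 0.78. In the joint fit without it, Col6a1, Lum and Dcn were -0.40, -0.58 and -0.67. No other member value changed direction with a call, and of the alternatives over all members 6558 kept their side of the threshold, 175 lost it and 124 gained it.

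Leaving out 1 library at a time gave 15 to 28 called members for BA tumours (15 without WT colon replicate 1), 24 to 30 for Apcfl/+ tumours, 19 to 24 for BA at day 30, 9 to 15 for APCfl/fl at day 4 and 9 to 15 for BA against A (9 without BA replicate 4). BA with antibiotics gave 1 to 11 against WT and 0 to 8 against BA. The 3 comparisons of A gave 0 in each case. The difference between tumour effects gave 6 to 12 (12 without BA tumour replicate 2 or the library labelled Apcfl/+ tumour replicate 2) and that between tumour and day 30 gave 29 to 34.

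Same-numbered mice did not deviate together, the correlations running from -0.44 to 0.23, so the numbers were not taken as pairs. With the replicate block the counts were 18 for BA tumours, 25 for Apcfl/+ tumours, 21 for BA at day 30, 12 for APCfl/fl, 10 for BA against A, 1 for BA with antibiotics against WT and 1 against BA, and 0 for the comparisons of A.

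Depth limits members of a few CPM, such as Col7a1 and Col17a1, most of all in the shallowest library, where 3 reads are 5.8 CPM.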

Other observations

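Outside the members, 15 other genes of elastic fibres and small proteoglycans and 10 other collagen chains were measured, with all libraries only. The shares of all tested genes are those given above beside the genes of collagen processing. In BA tumours 7 of the 15 were higher and 2 lower, from -1.21 for Efemp1, a fibulin, to 7.13 for Ltbp2, which encodes a protein of elastic fibres. In Apcfl/+ tumours 5 were higher and 1 lower. In BA colon at day 30 1 was higher, Ltbp2 at 1.05, and 8 were lower, Efemp1 the lowest at -1.52.

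Of the other collagens, 9 were tested in Apcfl/+ tumours, with 4 higher and 4 lower, from -2.26 for Col4a3 to 6.22 for Col9a3, a chain best known from cartilage. In BA colon at day 30, 5 of 9 were lower and 0 higher, the lowest being Col11a1 at -2.28. In APCfl/fl at day 4, 2 of 8 were higher and 4 lower, where 27.5% and 26.7% of all tested genes were.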
